A study of Homo sapiens with 6 samples.

Results

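Type I interferons signal through a receptor made of the chains IFNAR1 and IFNAR2, to which the kinases TYK2 and JAK1 are bound. The kinases phosphorylate STAT factors, and STAT2 in a complex with IRF9, the subunit that recognizes DNA, switches on interferon-stimulated genes through the interferon-stimulated response element (ISRE). SOCS1 and SOCS3 block the receptor kinases, and PIAS1 is a SUMO ligase that restrains STAT factors. These 9 genes run from the receptor to the DNA-binding subunit and the inhibitors. They were chosen by name for their place in the pathway, with earlier results of these data known. Every array probe paired with one of them is described. Probes were found for 8 of the 9 genes, with 11 of the 48803 probes on the array, out of 18665 named genes. STAT2 was not analysed here.

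Gene expression was profiled in LNCaP cells, an androgen-responsive prostate cancer line, at 72 h after transfection with 100 nM siRNA. In 3 samples the siRNA was directed against TCTP, the protein encoded by TPT1, and in 3 control samples it was directed at luciferase (Luc), which is foreign to human cells. Samples are numbered 1 to 3 within each group, and values are given in that order. The series record calls them biological replicates. The sources used here do not say whether each had its own transfection day, so that p-values measure the spread between these samples. No untransfected or mock-transfected cells were among the arrays, and a lower signal after TCTP siRNA cannot be told apart from a higher one after Luc siRNA. In bulk RNA, fewer cells with a transcript and less of it per cell cannot be told apart either.

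Each sample was hybridised to 1 Illumina HumanWG-6 v3 array. Median probe intensities lay between 35.6 and 39.8 on the arrays of TCTP siRNA and between 38.0 and 43.4 on those of Luc siRNA. The detection p sets a probe's signal against the array's negative control probes, and a probe with a value under 0.01 is called detected here, which held for 12828 to 13741 probes on each array. Signals are given as quantile-normalized log2 intensities, without background subtraction, which compresses changes of dim probes. A log2 change is TCTP siRNA minus Luc siRNA, from limma over the 13484 probes that passed detection on 3 or more arrays (kept probes), with Benjamini-Hochberg adjustment over all of them and a call at an adjusted p under 0.05. Levels of different probes are not comparable with each other. Precision is limited throughout by the number of arrays.

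The target of the siRNA was read first. The TPT1 probe ILMN_1789614 gave log2 intensities of 12.24, 12.46 and 12.39 after TCTP siRNA, against 12.94, 13.17 and 13.22 after Luc siRNA (log2 change -0.75, adjusted p = 0.00328 from limma, standard error 0.11), with no overlap. The brighter TPT1 probe ILMN_2094718 gave 13.92, 13.83 and 14.05 after TCTP siRNA, against 14.22, 13.98 and 14.16 after Luc siRNA, and did not pass the test (log2 change -0.19, adjusted p = 0.47 from limma). Directions here follow the sample labels. Of the luminal prostate markers 8 had a probe, all 8 were kept, and 0 were called with limma. At an unadjusted p under 0.05, 3 were lower and did not overlap between the groups, TARP (log2 change -0.46, adjusted p = 0.0586), TMPRSS2 (-0.42, adjusted p = 0.0717) and KLK2 (-0.36, adjusted p = 0.157). The other 5, KLK3 and KRT8 among them, had log2 changes between -0.03 and 0.05 on their brightest kept probes. A dimmer FOLH1 probe had a log2 change of -0.28 (adjusted p = 0.308 from limma). KLK3 was dim, at 6.36, 6.49 and 6.43 log2 units after TCTP siRNA, against 5.98, 6.89 and 6.36 after Luc siRNA. Over all kept probes, 19.8% did not overlap between the groups. The share of all kept probes at an unadjusted p under 0.05 was not counted. Unadjusted counts here and below therefore have no background beside them and are a description. Leukocyte markers, which include PTPRC and CD3E, were detected on 0 arrays (21 probes of 11 genes). Their summed intensity lay between 712 and 812 after TCTP siRNA and between 778 and 875 after Luc siRNA. Fibroblast markers were likewise detected on 0 arrays (11 probes of 6 genes). Of the endothelial markers 1 was kept, VWF, at 8.19, 8.21 and 8.17 log2 units after TCTP siRNA, against 8.50, 8.34 and 8.63 after Luc siRNA (log2 change -0.30, adjusted p = 0.195 from limma), and its part in the results was not tested.

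Of the 5 members that could be tested, IRF9 was the one called. Of the 11 probes 6 were kept, which covered IFNAR1, IFNAR2, TYK2, IRF9 and PIAS1, and 1 of these 6, that of IRF9, was lower after TCTP siRNA (over all kept probes 1.13% were called lower). At an unadjusted p under 0.05, IFNAR1 was lower as well. Of the 6, 0 were higher with limma, also at an unadjusted p under 0.05 (over all kept probes 0.794% were called higher), and the other 5 had log2 changes between -0.31 and 0.10. JAK1 lay at the limit of detection, and SOCS1 and SOCS3 were detected on 0 arrays. The median log2 change of the 6 probes was -0.016, beside 0.0039 over all kept probes.

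**Figure D1:**
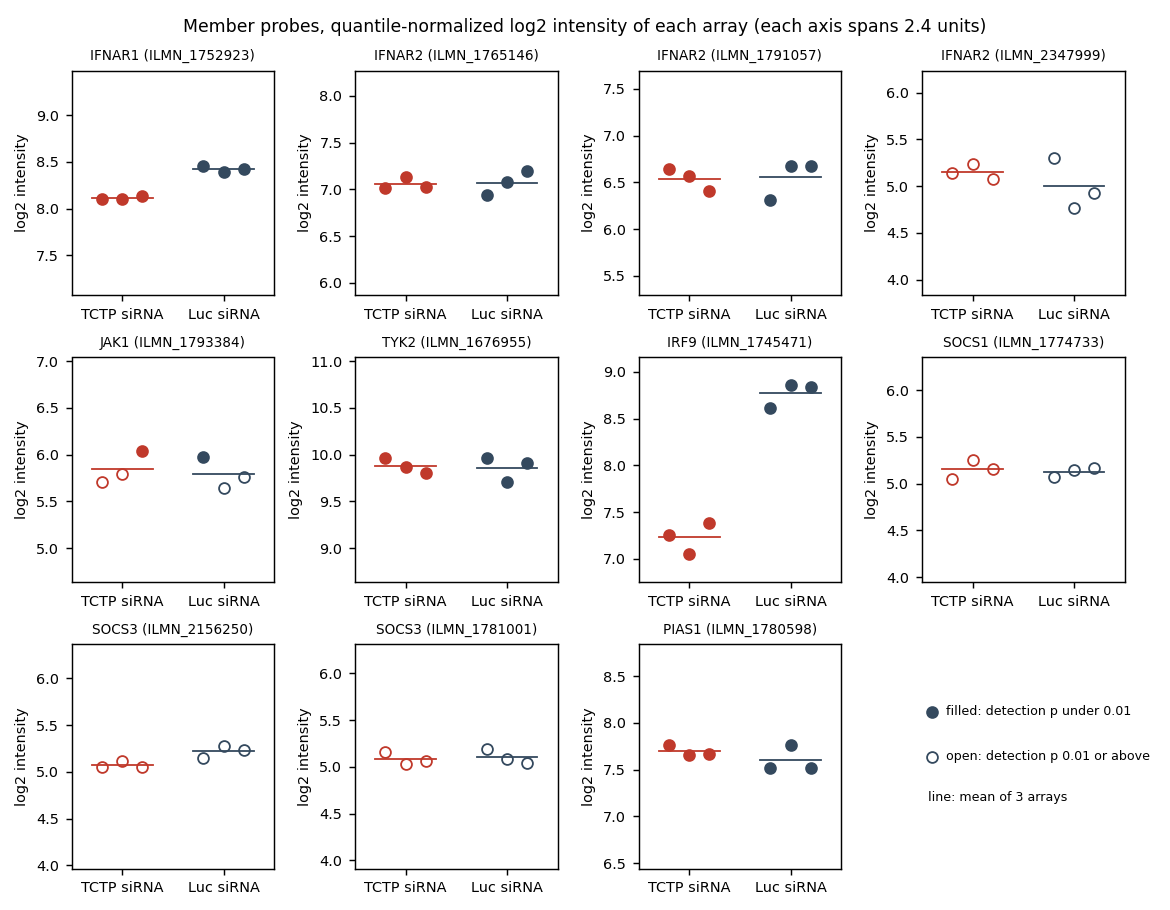
Quantile-normalized log2 intensity (vertical axes, each spanning the same number of log2 units) of the 11 probes on the 3 arrays of TCTP siRNA (left in each panel) and the 3 arrays of Luc siRNA (right), 1 point per array and a line at the group mean. Filled points have a detection p under 0.01. The groups stand far apart in the panel of IRF9, at 7.05 to 7.38 after TCTP siRNA and 8.62 to 8.86 after Luc siRNA, and narrowly apart in that of IFNAR1. The SOCS3 probe ILMN_2156250, detected on 0 arrays, did not overlap either. Over all kept probes, 19.8% did not overlap between the groups.

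IRF9 belongs to the interferon regulatory factor family and gives the complex with STAT2 its DNA specificity. Its gene lies on chromosome 14, on the plus strand. The 250 bases before its RefSeq start (GRCh38.p14, chr14:24161015-24161264) are shown because this is the member that was called, and capitals mark the match to the STAT dimer motif GAS (TTCNNNGAA).
IRF9: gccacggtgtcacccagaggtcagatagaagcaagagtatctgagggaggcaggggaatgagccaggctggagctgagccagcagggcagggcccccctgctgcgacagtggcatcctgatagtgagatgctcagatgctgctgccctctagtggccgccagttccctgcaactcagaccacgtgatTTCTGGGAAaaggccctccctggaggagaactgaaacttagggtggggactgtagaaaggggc
The match ran from 63 to 55 bases before the start. GAS was searched on both strands of windows from 250 bases before to 50 bases after each RefSeq start, and 7.66% of all 35116 windows of 300 bases hold at least 1 match. The ISRE core, TTTC and TTTC with any 2 bases between them, was searched in the same way. It had 0 matches in the IRF9 window and is present in 3.57% of all windows. A match describes the letters of a window and was not tested as a binding site.

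The deposited, non-normalized intensities of the IRF9 probe ILMN_1745471 were 150, 114 and 185 after TCTP siRNA, against 442, 475 and 424 after Luc siRNA. After normalization they were 7.26, 7.05 and 7.38 log2 units after TCTP siRNA, against 8.62, 8.86 and 8.84 after Luc siRNA. On both scales every array of TCTP siRNA lay below every array of Luc siRNA, and the gap between the groups was wider than the spread within either. IRF9 averaged 7.23 ± 0.17 after TCTP siRNA and 8.77 ± 0.13 after Luc siRNA (SD, n = 3 each). The log2 change was -1.55 (standard error 0.12, 95% interval -1.80 to -1.29, adjusted p = 2.5e-06 from limma). The signal after TCTP siRNA was thus 34.3% of that after Luc siRNA (95% interval 28.8% to 40.8%), a 2.92-fold lower signal, and IRF9 stood at rank 16 of the 13484 kept probes by size of fall and at rank 18 by p. The probe was detected on all 6 arrays, so that the fall was measured on both sides and is not a bound set by detection. Without background subtraction its size may still be compressed. Over 18 other ways of processing the data, the log2 change of IRF9 stayed between -1.68 (neqc background correction) and -1.40 (normexp background correction), and it was called in all 18. Those that change only the filter, the summary per gene, the eBayes options or the block cannot move the log2 change of a single probe. They left it at -1.55.

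**Figure D2:**
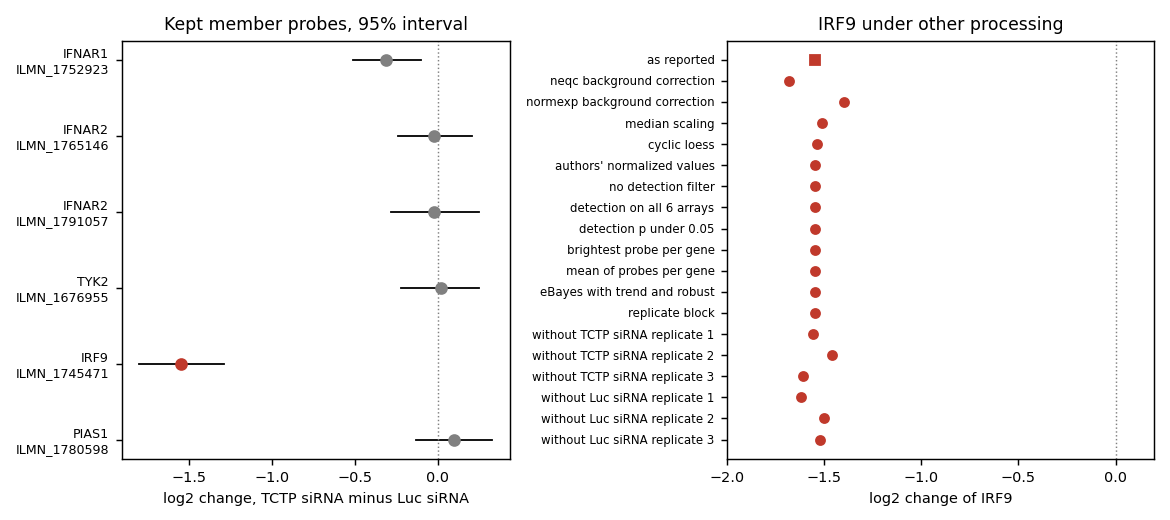
Left, log2 change (TCTP siRNA minus Luc siRNA) of the 6 kept probes with 95% intervals from limma, red where the adjusted p was under 0.05. Right, log2 change of IRF9 as reported (square) and under 18 alternatives (circles), which lie between -1.68 and -1.40.

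The receptor chains did not pass the test. IFNAR1, the chain to which TYK2 is bound, gave log2 intensities of 8.10, 8.10 and 8.13 after TCTP siRNA, against 8.45, 8.39 and 8.42 after Luc siRNA. The groups did not overlap on this scale, as for 2 of the 6 kept probes (IFNAR1 and IRF9) and for 19.8% of all kept probes. The log2 change of IFNAR1 was -0.31 (standard error 0.10, 95% interval -0.51 to -0.10), or 80.9% of the signal after Luc siRNA, with an adjusted p of 0.138 from limma. The non-normalized intensities were 272, 231 and 317 after TCTP siRNA, against 394, 341 and 316 after Luc siRNA, and these overlapped. Under the alternatives the adjusted p of IFNAR1 ranged between 0.097 and 0.523, and the log2 change was below 0 in all 18.

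IFNAR2, the chain that holds JAK1, was measured by 3 probes, of which 2 were kept. Probe ILMN_1765146 gave 7.02, 7.13 and 7.03 log2 units after TCTP siRNA, against 6.94, 7.08 and 7.20 after Luc siRNA, a log2 change of -0.02 (95% interval -0.24 to 0.21, adjusted p = 0.967 from limma). Probe ILMN_1791057 gave 6.64, 6.57 and 6.41 after TCTP siRNA, against 6.31, 6.68 and 6.68 after Luc siRNA, a log2 change of -0.02 (95% interval -0.28 to 0.25, adjusted p = 0.973 from limma). The groups overlapped on both probes, and a change of the size seen for IRF9 lies outside both intervals. The last IFNAR2 probe, ILMN_2347999, was detected on 0 arrays, with log2 intensities of 5.14, 5.24 and 5.08 after TCTP siRNA, against 5.30, 4.77 and 4.93 after Luc siRNA.

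The receptor-bound kinases differed in how well they could be measured. TYK2 was well above background, at 9.97, 9.87 and 9.81 log2 units after TCTP siRNA, against 9.97, 9.71 and 9.91 after Luc siRNA, and the groups overlapped. Its log2 change was 0.02 (standard error 0.11, 95% interval -0.22 to 0.25, adjusted p = 0.966 from limma). JAK1, the kinase that LNCaP cells have been described elsewhere as lacking, was at the limit of detection. Its probe ILMN_1793384 gave 5.71, 5.79 and 6.04 log2 units after TCTP siRNA, against 5.98, 5.64 and 5.76 after Luc siRNA. The detection p was 0.014, 0.016 and 0.0053 after TCTP siRNA, against 0.0092, 0.021 and 0.017 after Luc siRNA. JAK1 was thus detected on 1 array of each group at 0.01 and on all 6 at 0.05, and it did not enter the test. With probes kept at a detection p under 0.05 (0.918% of which were called lower), its log2 change was 0.06 (95% interval -0.20 to 0.31, adjusted p = 0.896 from limma), on a signal close to background, where changes are compressed.

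Among the inhibitors, PIAS1 was the one with a measurable signal. It gave 7.76, 7.66 and 7.67 log2 units after TCTP siRNA, against 7.52, 7.76 and 7.52 after Luc siRNA (log2 change 0.10, 95% interval -0.13 to 0.33, adjusted p = 0.748 from limma), and the groups overlapped. SOCS1 and SOCS3 are feedback inhibitors whose transcripts are induced by cytokine signalling in many cell types. SOCS1 was not above background on any array, at 5.05, 5.25 and 5.16 log2 units after TCTP siRNA, against 5.07, 5.15 and 5.17 after Luc siRNA. The SOCS3 probe ILMN_1781001 gave 5.16, 5.03 and 5.06 after TCTP siRNA, against 5.19, 5.08 and 5.04 after Luc siRNA. The SOCS3 probe ILMN_2156250 gave 5.05, 5.12 and 5.05 after TCTP siRNA, against 5.15, 5.28 and 5.23 after Luc siRNA, and did not overlap between the groups. Neither SOCS3 probe was detected on any array, and without a detection filter ILMN_2156250 did not pass the test (adjusted p = 0.736 from limma over 48803 probes). These signals are at background, so that no difference of SOCS1 or SOCS3 transcripts was detectable on these arrays.

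The SOCS1 window held the 1 ISRE match found among the 13 windows of the 8 members that have one (IRF9 held the 1 GAS match). It is shown with its neighbouring bases, in the direction of the gene (GRCh38.p14, chr16:11256293-11256332, minus strand, RefSeq), with the match in capitals on the strand where it reads GAAA, any 2 bases, GAAA.
SOCS1: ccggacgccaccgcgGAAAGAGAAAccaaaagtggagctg
The match began 113 bases before the start. The SOCS1 probe was at background in both groups, at detection p between 0.16 and 0.55 after TCTP siRNA and between 0.28 and 0.63 after Luc siRNA.

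The log2 intensity of IRF9 was also set against the mean of the other 5 kept probes within each array, as a description, since IRF9 was singled out after its call was known. This gave -0.64, -0.82 and -0.43 after TCTP siRNA, against 0.78, 0.93 and 0.89 after Luc siRNA. The sign of these values has no meaning, since levels of different probes are not comparable. Only the difference between the groups can be read, -1.5 log2 units, and it rests on the same IRF9 values as the log2 change above.

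The genes whose profile over the 6 arrays was most like that of IRF9, by Pearson's r among 8963 other kept genes, were IFI27, CD163L1, CDA, SAMD9 and CXCL10, with r between 0.996 and 0.998. The 6 arrays form 2 groups, so that such an r mainly reads the difference between the groups, and 101 genes had an r above 0.95. IFI27 and SAMD9 are interferon-stimulated genes, CXCL10 is an interferon-induced chemokine, CDA is cytidine deaminase and CD163L1 belongs to the scavenger receptor family. CD163L1 was detected on all arrays, at 7.06, 6.96 and 7.09 log2 units after TCTP siRNA, against 7.57, 7.59 and 7.60 after Luc siRNA (log2 change -0.55). IFI27, CDA, SAMD9 and CXCL10 were detected on 0 arrays of TCTP siRNA and on all 3 of Luc siRNA. Their signals have only a bound after TCTP siRNA, set on each array by the dimmest detected probe or by the probe itself, whichever was higher. IFI27 gave 5.52, 4.92 and 5.47 log2 units after TCTP siRNA, against 8.40, 8.69 and 8.76 after Luc siRNA, and was at least 6.20-fold lower. CDA was at least 2.02-fold, SAMD9 at least 1.99-fold and CXCL10 at least 1.76-fold lower. These 5 genes were picked for a profile like that of IRF9, so that their differences are a description. Of the other members, IFNAR1 had an r of 0.98 with IRF9, the IFNAR2 probes 0.12 and 0.11, TYK2 -0.16 and PIAS1 -0.42.

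**Figure D3:**
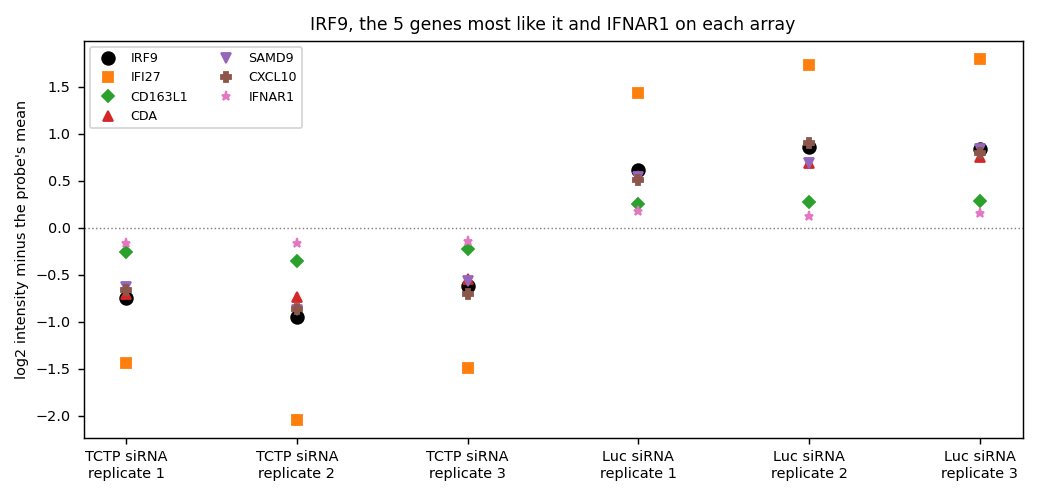
Log2 intensity minus the probe's mean over the 6 arrays (vertical axis) on each array (horizontal axis, TCTP siRNA on the left, Luc siRNA on the right) for IRF9, the 5 genes most like it and IFNAR1. All lie below their means after TCTP siRNA and above them after Luc siRNA. IFI27, CDA, SAMD9 and CXCL10 were not detected after TCTP siRNA. Their steps are drawn from undetected values and are not measured sizes, and only the bounds given in the text hold.

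Upstream of the receptor, transcripts of the ligands were mostly not above background. The 21 interferon genes (types I, II and III) were paired with 29 probes, and 28 of these were detected on 0 arrays. The exception was the IFNA8 probe ILMN_2110561, which was detected on all 6 arrays with a log2 change of 0.03 (adjusted p = 0.943 from limma), while the other IFNA8 probe was not detected. The IFNA genes are close copies of each other, so that the origin of signal on their probes is uncertain. A pair of ligand genes, chosen after their values were seen, came close to the detection limit in the control cells. IFNB1, the interferon that epithelial cells make early after sensing of foreign nucleic acid, gave 4.91, 4.92 and 5.03 log2 units after TCTP siRNA, against 5.65, 5.82 and 5.70 after Luc siRNA. Its detection p was 0.85, 0.80 and 0.58 after TCTP siRNA, against 0.025, 0.014 and 0.018 after Luc siRNA. The groups did not overlap, and no array of either reached 0.01. Without a detection filter IFNB1 was called lower (adjusted p = 1.2e-04 from limma over 48803 probes). In that fit 0.461% of all probes were called lower, and 0.0291% of those detected on no array.

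IFNL1, a type III interferon, which signals through another receptor to the same kinases and STAT factors, was the other. Its probe ILMN_2149624 gave 4.94, 5.12 and 5.26 log2 units after TCTP siRNA, against 5.45, 5.70 and 5.83 after Luc siRNA, with detection p of 0.78, 0.36 and 0.18 after TCTP siRNA, against 0.067, 0.021 and 0.017 after Luc siRNA. Without a detection filter this probe was called lower (adjusted p = 0.0185 from limma), and the IFNL1 probe ILMN_1684570 was not (adjusted p = 0.353 from limma). Among the other 25 undetected ligand probes the smallest adjusted p in that fit was 0.565. No size of change is given for these probes, since both groups were below the detection limit.

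**Figure D4:**
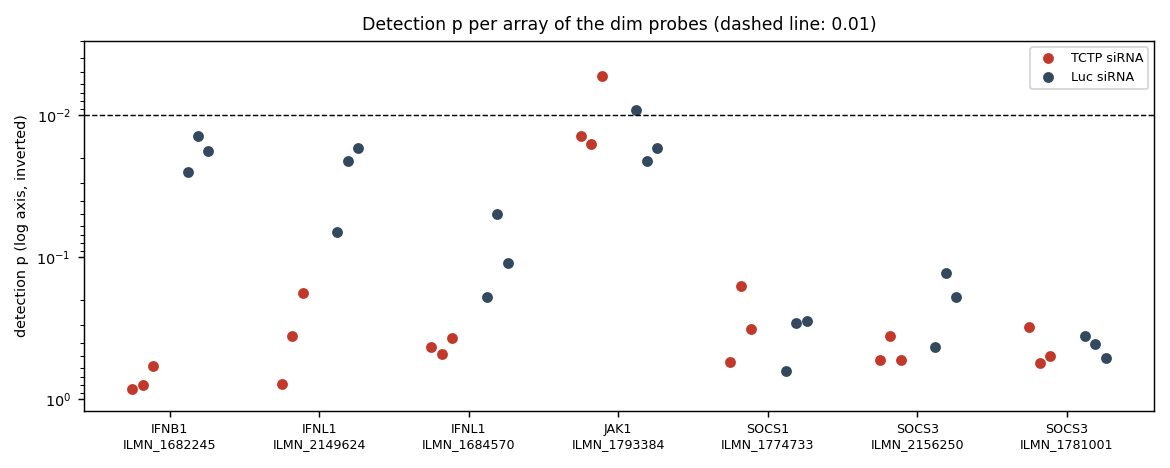
Detection p (vertical log axis, inverted so that brighter probes lie higher) of the dim probes of IFNB1, IFNL1, JAK1, SOCS1 and SOCS3 on each array of TCTP siRNA (red, left) and Luc siRNA (blue, right), with a dashed line at 0.01. The IFNB1 points of Luc siRNA lie between 0.014 and 0.025 and those of TCTP siRNA between 0.58 and 0.85, while the SOCS1 and SOCS3 points of both groups lie above 0.1.

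The remaining parts of the pathway were described by lists of genes, each represented by its brightest kept probe, and the median log2 change of all kept genes was 0.0011 (over 8968 genes, 1.34% were called lower and 0.892% higher). Of 20 other receptor chains that use JAK1 or TYK2, 6 were kept and 0 were called in either direction (1 lower and 2 higher at an unadjusted p under 0.05), with a median log2 change of -0.17. Those with the smallest p were IFNGR1, the ligand-binding chain of the interferon gamma receptor, and IL6R. IFNGR1 gave 8.42, 8.66 and 8.49 log2 units after TCTP siRNA, against 8.20, 8.03 and 8.02 after Luc siRNA, with no overlap and a log2 change of 0.44 (95% interval 0.20 to 0.67). With limma its adjusted p was 0.0586 over all kept probes and 0.0499 over 8968 genes, on either side of the threshold. IL6R had a log2 change of 0.33 (adjusted p = 0.159 from limma).

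Of 8 other JAK kinases and STAT factors, 3 were kept, namely JAK2, STAT3 and STAT5B, and 0 were called (0 also at an unadjusted p under 0.05), with a median log2 change of 0.18. STAT3 had a log2 change of 0.21 (adjusted p = 0.356 from limma) on its brightest probe, and -0.09 and 0.10 on the others. STAT5B had a log2 change of 0.18 (adjusted p = 0.549 from limma). Of 19 other negative regulators, among them further SOCS and PIAS proteins and the phosphatases that act on JAK kinases, 11 were kept and 0 were called (1 lower at an unadjusted p under 0.05), with a median of 0.07. The smallest p belonged to PTPN2, a phosphatase of JAK and STAT proteins (log2 change -0.26, adjusted p = 0.276 from limma), and to CBL, a ubiquitin ligase (log2 change 0.28, adjusted p = 0.348 from limma). Of 11 nuclear transport proteins and chromatin cofactors, 10 were kept and 0 were called (1 higher at an unadjusted p under 0.05, median 0.12), with the smallest p for the histone deacetylase HDAC3 (log2 change 0.25, adjusted p = 0.237 from limma) and the importin KPNA1 (log2 change 0.23, adjusted p = 0.363 from limma).

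Downstream, the genes that IRF9 and its partners are known to switch on were mostly lower after TCTP siRNA. Of 46 interferon-stimulated target genes 33 were kept, 25 of these 33 were lower after TCTP siRNA and 0 were higher, also at an unadjusted p under 0.05 (over all kept genes 1.34% were lower). Of the 25, 10 were detected on 0 arrays of TCTP siRNA and entered the test through the arrays of Luc siRNA alone, and with detection required on all 6 arrays 14 target genes were lower. The median log2 change of the 33 was -0.89. These genes were listed with results of the same arrays known, so that their count is no independent evidence of a direction. The changes ranged between -3.67 and 0.13, and the log2 change of IRF9, -1.55, lay inside that range. Both the median and the range include the 10 genes undetected after TCTP siRNA, whose changes are not measured sizes. With detection required on all 6 arrays the median was -0.73. IFIT1, which binds foreign RNA, gave 6.14, 5.74 and 5.96 log2 units after TCTP siRNA, against 9.51, 9.77 and 9.59 after Luc siRNA (log2 change -3.67, standard error 0.12, adjusted p = 8.5e-10 from limma), and was above the detection limit on 2 arrays of TCTP siRNA. Its relative IFIT2 gave 6.44, 6.56 and 6.96 after TCTP siRNA, against 9.46, 9.58 and 9.49 after Luc siRNA (log2 change -2.86, adjusted p = 1.4e-08 from limma). OAS2, which makes the second messenger of RNase L, gave 4.88, 5.04 and 4.74 after TCTP siRNA, against 7.41, 7.55 and 7.47 after Luc siRNA, with an adjusted p of 1.0e-08 from limma. It was detected on 0 arrays of TCTP siRNA and was thus at least 2.82-fold lower there. IFI27 is also on this list, with the bound given above. ISG20 (0.13) and TAP1 (0.05) were the kept targets with log2 changes above 0, and neither passed the test.

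**Figure D5:**
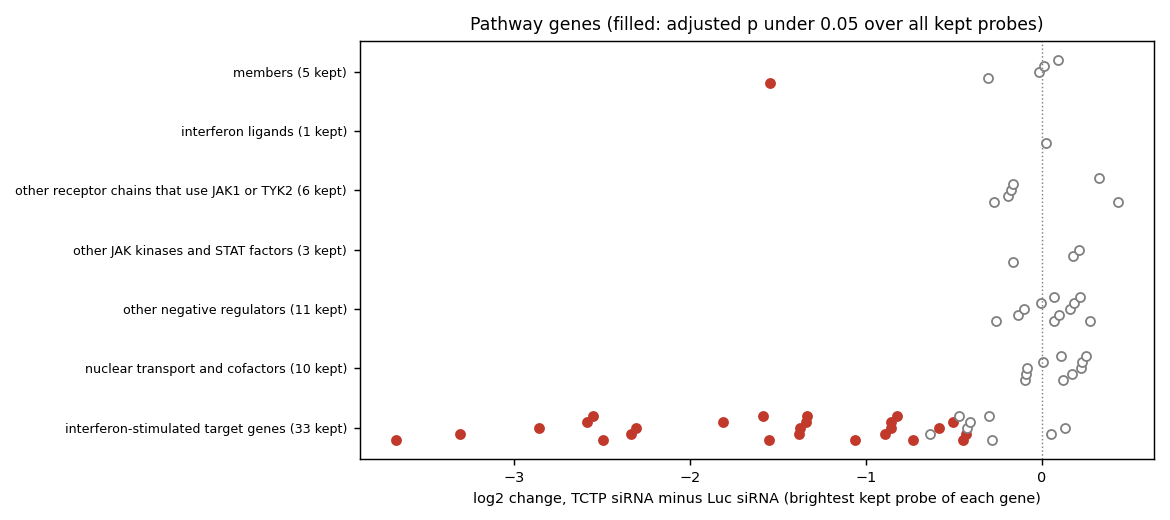
Log2 change (TCTP siRNA minus Luc siRNA, horizontal axis) of each kept gene of the pathway, by list (rows), filled where the limma adjusted p was under 0.05. The filled points are IRF9 among the members and 25 of the 33 kept interferon-stimulated target genes, and none lies in the other lists. Of these 25, 10 were detected on 0 arrays of TCTP siRNA and entered the test through the arrays of Luc siRNA alone. Their points are drawn from undetected values and are not measured sizes.

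Promoters of many of these targets hold the element that the complex of IRF9 and STAT2 is known to bind, and a few are printed for comparison with the IRF9 window, in the direction of each gene, with ISRE matches in capitals as a pair of TTTC or of GAAA (GRCh38.p14, RefSeq). Their positions are chr10:89392492-89392544 on the plus strand for IFIT1, chr14:94110613-94110665 on the plus strand for IFI27, chr1:1013369-1013414 on the plus strand for ISG15, chr1:27672261-27672363 on the minus strand for IFI6 and chr7:93118091-93118130 on the minus strand for SAMD9. The ISG15 capitals cover a pair of overlapping matches.
IFIT1: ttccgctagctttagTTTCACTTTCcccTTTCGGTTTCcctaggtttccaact
IFI27: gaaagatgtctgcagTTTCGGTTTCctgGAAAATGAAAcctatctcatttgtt
ISG15: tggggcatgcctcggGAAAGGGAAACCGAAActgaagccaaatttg
IFI6: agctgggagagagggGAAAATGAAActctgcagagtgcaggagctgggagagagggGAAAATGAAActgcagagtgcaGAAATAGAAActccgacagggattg
SAMD9: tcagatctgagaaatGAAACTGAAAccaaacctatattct
Of the 25 targets called lower, 22 had a RefSeq window, and 16 of these (72.7%) held at least 1 ISRE match (4.38% of all genes with a window). The 6 kept targets with a window that were not called all held one, so that the letters alone did not separate called from uncalled targets. Uncalled does not always mean unchanged here. At an unadjusted p under 0.05 with limma, 31 of the 33 kept targets were lower, the 25 called ones included. ISG20 and TAP1, both uncalled, were not among the 31. The IRF9, IFNAR1 and TYK2 windows had 0 ISRE matches. No match says only that these letters are not in the window.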

How the data were processed

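The 6 Illumina HumanWG-6 v3 arrays of LNCaP RNA were analysed, 3 of TCTP siRNA and 3 of Luc siRNA by their labels. The authors scanned the arrays in BeadStudio, whose version the sources used here do not give, and deposited non-normalized probe intensities with a detection p-value per probe. They also deposited quantile-normalized intensities, used as an alternative, which differed by at most 0.0305 log2 units from those computed here. All columns of values were mapped to a sample. The study's methods name quantile normalization, SAM and feature subset selection in J-Express, and SAM was not run here.

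Intensities were quantile-normalized, put on the log2 scale and compared with lmFit and eBayes in limma 3.58.1 (R 4.3.3). Tested were probes whose detection p was under 0.01 on 3 or more of the 6 arrays, and Benjamini-Hochberg adjustment ran over all 13484 of them. Symbols came from the platform annotation, updated by gene identifier: 27578 probes had 1 symbol, 21212 had none listed, and the 13 with several were left unnamed. Promoter windows came from RefSeq (GRCh38.p14), and IFNAR2 had none in the table used.

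The members and lists were chosen with earlier results of these data known. Every probe of the members is given. From each list, at most 4 called genes were named by size of change, or at most 2 by smallest p in lists with no call, and 5 genes were named for likeness to IRF9. TPT1 was named as the target. Outside this rule IFNB1, IFNL1, IFNA8, JAK2, ISG20, TAP1, ISG15, IFI6, the luminal markers, VWF, PTPRC and CD3E are named, as examples or after their values were seen. The arrays carry no batch label. The fit was tested on simulated data. It recovered 39.4% of changes of 0.5 log2 units, 95.2% of those of 1 and 98.6% of those of 2. Of the calls in the simulated data, 3.7% were false, and the share of false calls on the real arrays was not measured. Changes of 0.5 log2 units or less can therefore go uncalled. The alternatives tried were the replicate number as a block, each array left out, a threshold of 0.01 on the adjusted p, no detection filter or another one, 1 value per gene (brightest probe or mean), eBayes with robust and trend, the authors' normalized values, cyclic loess or median scaling in place of quantiles, and background correction by normexp (offset 50) or neqc (offset 16). The comparison of IRF9 with the other members within each array was added after seeing the data. Figures were drawn with matplotlib 3.10.9.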

Additional observations from a re-analysis of the deposited data

How the results depend on the processing

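IRF9 was called lower under all 18 alternatives, with an adjusted p between 2.4e-08 and 6.3e-04 (median scaling, log2 change -1.51), and with 1 array left out its log2 change lay between -1.62 and -1.46. The counts of calls over all probes (153 lower, 107 higher) were less steady. They were 45 and 21 with median scaling and 59 and 32 at an adjusted p under 0.01, and without a detection filter 162 were higher. With 1 array left out, between 58 and 189 were lower and between 29 and 156 higher, and the arrays whose loss moved a count by over 1.5 times were TCTP siRNA 1 and Luc siRNA 1, 2 and 3. Same-numbered arrays did not deviate together (correlations of -0.08, -0.04 and -0.37, against -0.36 to 0.48 for arrays of different number). With 3 arrays per group this cannot show whether samples of the same number were handled together. With the replicate number as a block 85 probes were lower and 54 higher, and IRF9 kept its call (adjusted p = 5.3e-06 from limma). Of the target genes 14 were lower when detection on all 6 arrays was required, against 25, since genes undetected after TCTP siRNA then drop out. In the ligands 2 genes (IFNB1 and IFNL1) were lower without a detection filter and 1 (IFNB1) with a detection p under 0.05. IFNB1 passed that filter through the 3 arrays of Luc siRNA alone, and this call is no further evidence of a fall. In the other receptor chains 1 gene (IFNGR1) was higher without a filter, with the brightest probe per gene and with the mean of a gene's probes. Changes near 0 changed sign without reaching the threshold. IFNAR2 ILMN_1765146 was 0.00 with median scaling and lay between -0.08 and 0.05 with 1 array left out, IFNAR2 ILMN_1791057 between -0.14 and 0.05, and TYK2 between -0.06 and 0.07. The cause of these shifts was not tested. Signal over background limits JAK1, SOCS1, SOCS3 and the ligands.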
